A study of Mus musculus with 16 samples.

Results

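The striatum of 3-week-old mice with a Gad2-Cre deletion of Rai1 was compared with that of wild-type mice, in 4 of the 16 libraries of the series. A gene entered the comparison when it reached at least 1 RPKM (reads per kilobase of transcript, relative to library depth) in at least 2 of these 4 libraries, which held for 10598 of the 24176 genes measured. The 2 libraries labelled wild type and the 2 labelled knockout (Gad2-Cre;Rai1CKO) came from mice of a B6/FVB F1 background, and total RNA was sequenced from flash-frozen striatum. The same driver and background were used for striatum at 12 weeks, whereas cortex at 3 weeks came from Nestin-Cre mice of the B6/FVB F1 background and hypothalamus at 8 weeks from Vglut2-Cre mice of a B6/129 F1 background. Each of these sets again had 2 libraries per label. The labels do not say which part of Rai1 was deleted, how the Cre line was made or whether replicates are separate animals. A p-value therefore speaks of the spread among libraries, and that spread may be technical. The spread was pooled within groups over all 16 libraries, so other regions, ages and drivers entered it.

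RAI1 is a nuclear protein that binds chromatin, and loss of 1 copy of its gene causes Smith-Magenis syndrome, a developmental disorder with intellectual disability, disturbed sleep and overeating. Gad2 encodes a glutamate decarboxylase, an enzyme that makes the transmitter GABA, so a Cre under its control acts in GABAergic neurons. Nearly all neurons of the striatum are of this kind. Most are spiny projection neurons, which send their axons along a direct route (with the dopamine receptor Drd1 and the peptides substance P and dynorphin) or an indirect route (with Drd2, the adenosine receptor Adora2a and enkephalin). The remainder are interneurons, among them a small cholinergic class, and glia and incoming axons surround them.

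Rai1 itself did not follow the labels. It was at 3.77 and 2.85 scaled RPKM in the libraries labelled wild type and at 7.54 and 6.66 in those labelled knockout (levels here and below are RPKM divided by a factor per library that evens out the median gene). The libraries labelled knockout were the higher ones without overlap, and the log2 change was 1.01 (SE 0.17), short of the threshold (adjusted p = 0.066, limma over all 10598 genes, threshold 0.05). In striatum at 12 weeks the log2 change of Rai1 was 1.18 (adjusted p = 0.0200), the single gene called higher there, which is 0.00944% of the genes tested. RPKM over the whole gene need not show a deletion of part of it, and why the level was higher was not tested. At a threshold of 0.1, Rai1 was among 15 genes whose effect in cortex differed from that in striatum at 3 weeks. Each direction below is that of the libraries labelled knockout. Gad2, the gene that names the driver, was at 35.8 and 38.2 scaled RPKM in the libraries labelled wild type and at 23.9 and 22.2 in those labelled knockout. Both knockout libraries were lower, with a log2 change of -0.67 (SE 0.13, adjusted p = 0.0988), whereas Gad1, which encodes the second glutamate decarboxylase, stood at 69.2 and 62.7 against 78.8 and 74.9 (log2 change 0.22, adjusted p = 0.493).

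The 4 libraries had a depth of about 31156968 to 35488472 read pairs, as estimated from the smallest steps in the RPKM values, and the 16 libraries one of about 21606796 to 35488472. Xist was at or below 0.0723 scaled RPKM and the Y-linked Ddx3y at or above 2.91 in all 16. The spiny neuron markers summed to 1834 to 2145 scaled RPKM in the 4 libraries and to 308 to 359 in the cortical ones, so the tissue carried its defining genes. Knockout replicate 1 stood apart from the rest by the length of genes: relative to the wild-type mean its median log2 difference went from -0.18 in the shortest of 10 classes of gene span (median 3.06 kb) to 0.23 in the longest (median 259 kb). Knockout replicate 2 went from 0.01 to 0.06, and wild-type replicate 1 minus replicate 2 from -0.05 to 0.12. Many medians of gene lists below are therefore also given without it, or without another library that moved them.

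**Figure D1:**
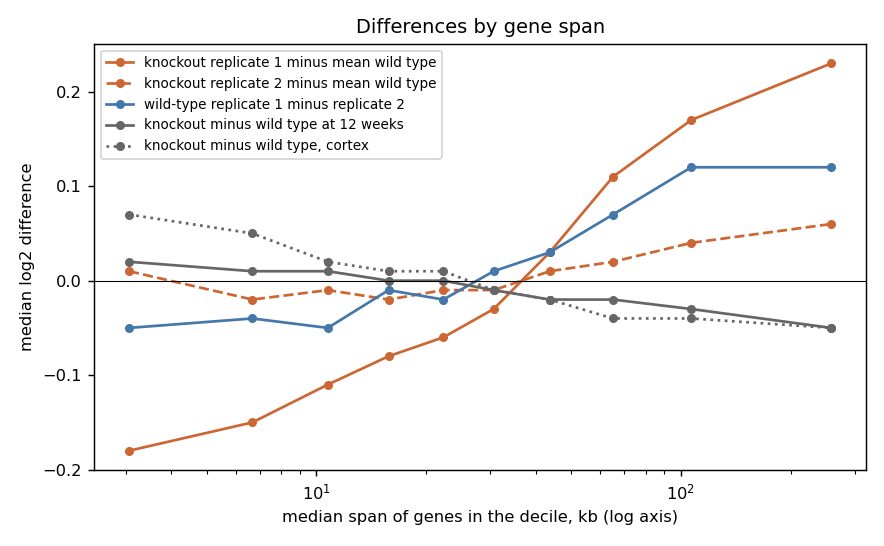
Median log2 difference (y axis) in 10 classes of genes ordered by span (x axis, median span in kb, log axis), with 1 line per difference named in the key. Knockout replicate 1 rises from -0.18 to 0.23, while knockout replicate 2 and the knockout effects at 12 weeks and in cortex stay between -0.05 and 0.07.

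At 3 weeks, 5 genes were called lower in the libraries labelled knockout and none was called higher. The 5 are Nts, which encodes the neuropeptide neurotensin, the serotonin receptor gene Htr2a, the adhesion gene Cdh9, Brinp3 and Kctd8, a partner of the GABA-B receptor. Their levels dropped to between 0.158 and 0.488 of the wild-type level. Calls lower made up 0.0472% of the 10598 genes and calls higher 0.0%. At an unadjusted p under 0.05, 488 genes (4.6%) were lower and 846 (7.98%) higher, and in 20.5% of genes both knockout libraries lay below both wild-type libraries, in 19.2% above. A fit of these 4 libraries alone, which leaves few degrees of freedom, called 0 genes.

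**Figure D2:**
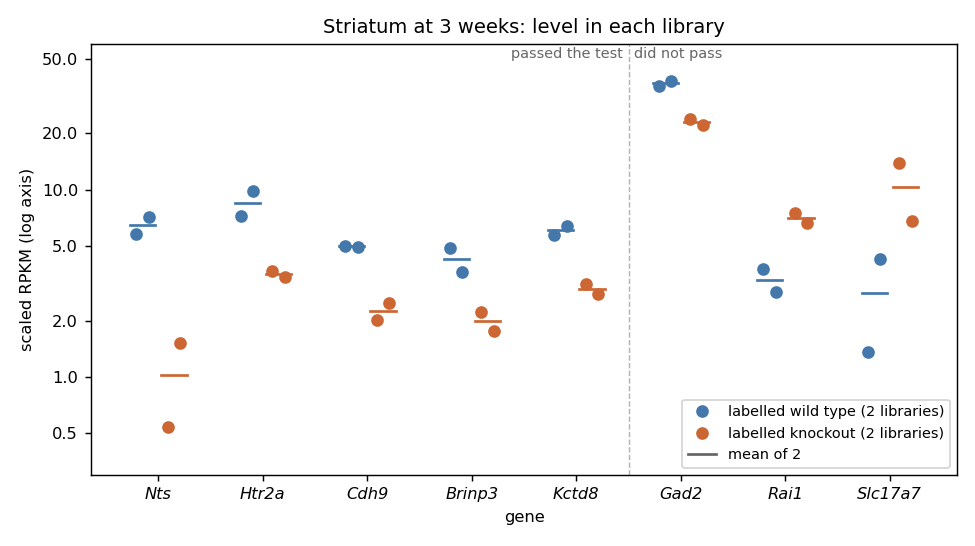
Level in each of the 4 libraries (y axis, scaled RPKM, log axis) of the 5 genes that passed the test and of Gad2, Rai1 and Slc17a7, which did not. Points are libraries and bars are the mean of 2; the 5 genes at the left lie lower in both libraries labelled knockout, and Rai1 and Slc17a7 lie higher.

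**Figure D3:**
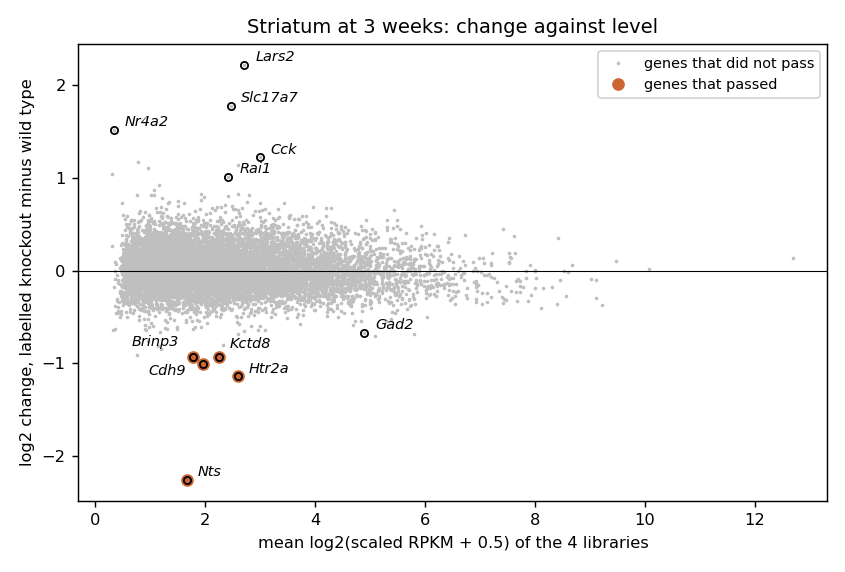
Log2 change (y axis, labelled knockout minus wild type) against the mean log2 level (x axis) for the 10598 genes. Filled orange points are the 5 genes that passed, all below 0; open circles are named genes that did not pass, among them Lars2 at 2.22, Slc17a7 at 1.78 and Cck at 1.22.

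Nts changed by the largest factor of the 5. Neurotensin is released by subsets of spiny neurons and modulates dopamine signalling. Its gene was at 5.83 and 7.16 scaled RPKM in the libraries labelled wild type and at 0.542 and 1.52 in those labelled knockout, so that the groups were far apart although the knockout replicates differed from each other. The fold difference was 6.31, and the log2 change was -2.26 (SE 0.26, adjusted p = 0.00356). It rests on about 258 and 348 read pairs against 20 and 62. Without knockout replicate 1 the log2 change of Nts was -1.79 (adjusted p = 0.0237). In bulk tissue fewer cells of a type and less RNA per cell cannot be told apart. The receptor genes did not pass: Ntsr2 had a log2 change of -0.05 (adjusted p = 0.908), and Sort1, whose product sortilin binds neurotensin, one of 0.13 (adjusted p = 0.605).

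Among the neuropeptide genes, 14 of 33 listed were expressed enough to be tested, and Nts was the 1 called. The median log2 change of the 14 was 0.08 (-0.06 without knockout replicate 2), beside -0.01 over all genes tested. Tac1, the gene of substance P, was at 28.3 and 34.2 scaled RPKM against 17.6 and 23.8, with a log2 change of -0.59 (SE 0.20, adjusted p = 0.305). Both knockout libraries lay below both wild-type libraries for Tac1, as they did for Pdyn, the dynorphin gene (15.5 and 16.8 against 12.4 and 13.1, log2 change -0.32, adjusted p = 0.389). Penk, the enkephalin gene, overlapped between groups (195 and 183 against 150 and 188, log2 change -0.17). The interneuron peptides Sst and Npy had log2 changes of 0.33 and 0.30, with overlapping libraries, and neither passed. Cck had the highest estimate of the list and is described with the cortical genes.

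Htr2a encodes a serotonin receptor coupled to Gq proteins, the main target of classical hallucinogens. Htr2a was at 7.23 and 9.82 scaled RPKM in the libraries labelled wild type and at 3.70 and 3.40 in those labelled knockout. The knockout libraries were close to each other and well below both others, with a fold difference of 2.40 and a log2 change of -1.14 (SE 0.14, adjusted p = 0.00356). The call was lost without wild-type replicate 2, the higher of that pair (log2 change -0.93, adjusted p = 0.0587). Of 14 serotonin receptor genes 6 were tested. The related receptor gene Htr2c was at 7.96 and 10.8 against 5.39 and 6.56, again without overlap, but its log2 change of -0.60 (SE 0.13) did not pass (adjusted p = 0.170). The other 4 had log2 changes between -0.19 for Htr1b and 0.06 for Htr1d.

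Cdh9 encodes a type II cadherin, a homophilic adhesion molecule that helps to match synaptic partners. Cdh9 was at 5.02 and 4.95 scaled RPKM in the libraries labelled wild type and at 2.01 and 2.47 in those labelled knockout. The replicates of each group were close, and the log2 change was -1.01 (SE 0.12, adjusted p = 0.00356). The adjusted p was 0.053 without wild-type replicate 1 and 0.0508 without knockout replicate 1. In 7 of the 13 cadherin genes tested both knockout libraries were lower, and in 1 both were higher, beside 20.5% and 19.2% of all genes. The median log2 change of the 13 was -0.16. Cdh10, Cdh7 and Cdh11, also type II cadherins, had log2 changes of -0.44, -0.40 and -0.38 with unadjusted p under 0.05, and none passed after adjustment (adjusted p = 0.305, 0.305 and 0.274). Cdh4, the gene of R-cadherin, had a positive estimate: it was at 1.44 and 1.19 against 2.35 and 2.25, a log2 change of 0.63 (SE 0.12, adjusted p = 0.0988).

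Brinp3 encodes a neural protein of a family induced by bone morphogenetic protein and retinoic acid. Brinp3 was at 4.91 and 3.63 scaled RPKM in the libraries labelled wild type and at 2.23 and 1.76 in those labelled knockout. The groups did not overlap, although the wild-type replicates were wide apart, and the log2 change was -0.93 (SE 0.14, adjusted p = 0.0158). The adjusted p was 0.13 without wild-type replicate 1, the higher of its pair, and 0.0527 without knockout replicate 2. The other members of its family did not pass: Brinp1 had a log2 change of -0.03 and Brinp2 one of 0.13. Fstl5, which encodes a secreted follistatin-like protein and stood in the same list of 9 tested genes, was at 2.37 and 2.46 against 1.43 and 0.943. It was lower in both knockout libraries with a log2 change of -0.81 (SE 0.14, adjusted p = 0.066).

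Kctd8 encodes an auxiliary subunit that binds the GABA-B receptor and shapes its signalling. Kctd8 was at 5.75 and 6.37 scaled RPKM in the libraries labelled wild type and at 3.13 and 2.78 in those labelled knockout. Replicates were close and the groups did not overlap (log2 change -0.93, SE 0.14, adjusted p = 0.0158), but the adjusted p lay between 0.0527 and 0.222 when any 1 of the 4 libraries was left out. Of the 18 KCTD genes tested it was the 1 called, with a median log2 change of -0.00 for the family. The other auxiliary subunits of the receptor did not pass: Kctd12 had a log2 change of -0.15 and Kctd16 one of 0.32. The receptor's own subunit genes stood at log2 changes of -0.04 for Gabbr1 and 0.44 for Gabbr2 (adjusted p = 0.883 and 0.274).

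The promoters of 4 of these 5 genes are shown because the genes fell together; each has a single start in RefSeq, whereas Brinp3 has 3 and is not shown. Each line gives the 250 bases before the start, 5′ to 3′ on the strand of the gene (RefSeq, GRCm38.p6). Capitals mark matches on either strand to the motifs searched, which were the TATA box (TATAAA), the CCAAT box (CCAAT), the GC box (GGGCGG), the cyclic AMP response element (TGACGTCA), its half-site (TGACG), the AP-1 site (TGANTCA) and the E-box of clock factors (CACGTG).
Nts, chr10:102490419-102490668, minus strand: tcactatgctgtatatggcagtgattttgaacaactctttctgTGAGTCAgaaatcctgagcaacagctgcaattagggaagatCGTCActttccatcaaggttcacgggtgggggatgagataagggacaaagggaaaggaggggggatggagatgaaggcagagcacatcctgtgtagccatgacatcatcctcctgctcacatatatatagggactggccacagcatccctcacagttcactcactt
Htr2a, chr14:74640624-74640873, plus strand: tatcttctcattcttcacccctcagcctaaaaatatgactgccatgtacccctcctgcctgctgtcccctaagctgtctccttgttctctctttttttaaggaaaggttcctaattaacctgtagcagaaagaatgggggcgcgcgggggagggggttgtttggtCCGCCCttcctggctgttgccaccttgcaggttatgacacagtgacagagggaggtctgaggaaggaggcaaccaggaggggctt
Cdh9, chr15:16728665-16728914, plus strand: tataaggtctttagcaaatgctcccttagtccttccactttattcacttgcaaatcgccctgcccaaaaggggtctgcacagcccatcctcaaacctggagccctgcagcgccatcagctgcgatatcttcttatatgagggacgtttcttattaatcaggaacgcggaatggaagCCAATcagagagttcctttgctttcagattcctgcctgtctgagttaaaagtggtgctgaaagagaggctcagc
Kctd8, chr5:69341710-69341959, minus strand: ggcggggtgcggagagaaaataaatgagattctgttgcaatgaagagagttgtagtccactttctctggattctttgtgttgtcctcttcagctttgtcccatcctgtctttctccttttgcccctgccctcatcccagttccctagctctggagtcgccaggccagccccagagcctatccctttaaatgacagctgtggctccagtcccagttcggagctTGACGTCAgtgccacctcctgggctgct
No motif was present in all 4. The Nts promoter held an AP-1 match, whose first base lay 207 bases before the start, and a half-site of the cyclic AMP response element at 166. The Kctd8 promoter held a full cyclic AMP response element at 28 bases before the start, which also counts as overlapping half-sites. The Htr2a promoter held a GC box and the Cdh9 promoter a CCAAT box. The Brinp3 windows, some of which overlap each other, each held a CCAAT box and none of the other motifs searched. Over the 10410 promoters of tested genes in windows of the same length, 3.9% held the AP-1 letters, 27.2% the half-site, 2.7% the full element, 58.4% the GC box and 35% the CCAAT box. Over all 32851 promoters these shares were 6.7%, 17.8%, 1.5%, 32.7% and 33.8%. The 4 promoters had a GC content of 48.0% to 53.6%, beside a median of 60.4% over the promoters of tested genes, with a 10th percentile of 47.2%. These matches describe letters, not bound sites.

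Apart from Fstl5 and Gad2, the genes of smallest p on the lower side that did not pass included Pcdh20, a protocadherin gene, at 2.88 and 2.30 against 1.42 and 1.03 scaled RPKM (log2 change -0.85, adjusted p = 0.072). Gpr101, an orphan receptor gene, stood at 1.45 and 2.23 against 0.877 and 0.592 (log2 change -0.91, adjusted p = 0.163). Gpr101 reached 1 RPKM in the wild-type libraries alone, so the filter on level favoured its direction. Glra2, which encodes a glycine receptor subunit, stood at 3.58 and 4.12 against 2.29 and 2.42 (log2 change -0.60, adjusted p = 0.167). Genes on this side were named among those whose groups did not overlap, so the lack of overlap is no result. BC030500 and Dph3, a gene of diphthamide synthesis, completed the 12 genes named on this side, with log2 changes of -0.68 and -0.50.

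On the higher side no gene passed, and the 12 of smallest p were Rai1 (above), Fam163b, Rraga, Cdh4, Nov, D430041D05Rik, Akap5, Pitpnm3, Grik3, Ace, Nr4a2 and Samd5. Akap5 encodes an anchoring protein that holds protein kinase A at synapses. It had the smallest SE of the 12, at 24.0 and 24.9 scaled RPKM against 32.9 and 33.6 (log2 change 0.44, SE 0.09, adjusted p = 0.0988). Rraga, the gene of a GTPase that links amino acids to mTOR signalling, stood at 1.81 and 1.94 against 3.66 and 3.20 (log2 change 0.73, adjusted p = 0.0988). Grik3, a kainate receptor gene, stood at 3.93 and 3.29 against 6.74 and 5.08 (log2 change 0.63, adjusted p = 0.110). These genes too were named among those without overlap. Lars2, the mitochondrial leucyl-tRNA synthetase gene, had the highest estimate of all genes and is named after its values were seen: it was at 3.30, 1.93 and 2.03 in 3 libraries and at 78.5 in knockout replicate 2 alone (log2 change 2.22, adjusted p = 0.369; -0.26 without that library).

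The genes that define spiny neurons showed no call. Drd1 was at 86.4 and 97.7 scaled RPKM against 74.5 and 92.9 (log2 change -0.14, adjusted p = 0.631), and Drd2 at 37.2 and 36.2 against 36.7 and 47.5 (log2 change 0.18, adjusted p = 0.554). The libraries of the groups overlapped for both receptors. Ppp1r1b, which encodes the dopamine-regulated phosphatase inhibitor DARPP-32, was at 228 and 239 against 218 and 273 (log2 change 0.06), and Adora2a at 97.3 and 99.2 against 77.3 and 103 (log2 change -0.14). Of 12 direct pathway genes 9 had negative estimates, with Tac1 and Pdyn the lowest, and the median was -0.13. Without knockout replicate 1 this median was -0.01. The 9 indirect pathway genes tested had a median of -0.11, which turned to 0.07 without knockout replicate 1 and to 0.03 without wild-type replicate 2. The 22 genes shared by both kinds of spiny neuron had a median of 0.05 (-0.05 without knockout replicate 2), beside -0.01 over all genes. Foxp1, a transcription factor gene of spiny neurons and one of the longer genes at 597 kb, was at 16.7 and 15.97 against 20.4 and 19.4 (log2 change 0.27, adjusted p = 0.329).

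**Figure D4:**
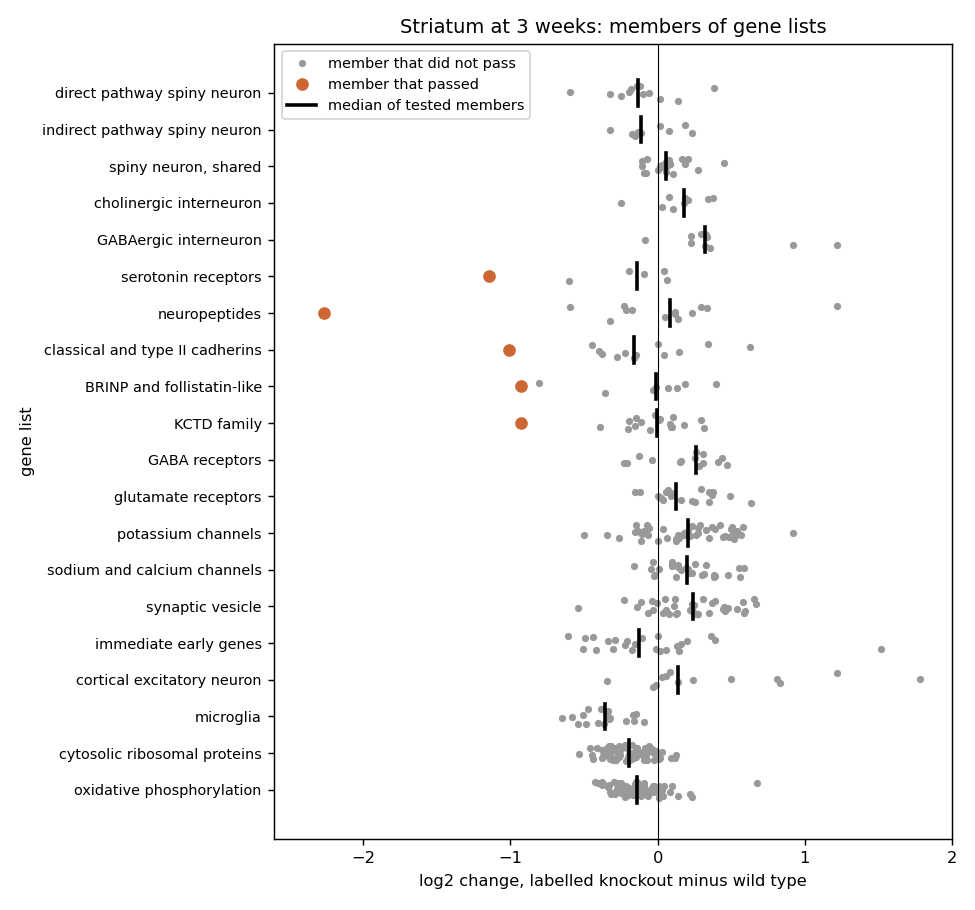
Log2 change (x axis) of the tested members of 20 gene lists (y axis); grey points are members that did not pass, orange points the 5 members that did, and black bars the median of each list. Nts, Htr2a, Cdh9, Brinp3 and Kctd8 are each the lowest member of their list, all 18 microglial genes lie below 0, and most channel and vesicle genes lie above 0.

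GABAergic interneuron genes had mostly positive estimates, and none was called. Of 12 GABAergic interneuron genes tested 11 had positive estimates, the median was 0.32, and 7 of 12 had an unadjusted p under 0.05, beside 7.98% of all genes on that side. Reln, the gene of the matrix protein reelin, was at 11.5 and 10.4 scaled RPKM against 14.0 and 14.2 (log2 change 0.36, adjusted p = 0.305). Lhx6, a transcription factor gene of interneurons from the medial ganglionic eminence, was at 2.49 and 2.36 against 3.37 and 2.97 (log2 change 0.33, adjusted p = 0.313). The groups did not overlap in either gene. The median of the list was 0.28 without knockout replicate 1 and 0.35 without knockout replicate 2. Cck, its highest member, also stands in the list of cortical genes. The 9 cholinergic genes tested had a median of 0.18, which was 0.30 without knockout replicate 1, 0.11 without wild-type replicate 1 and -0.01 without knockout replicate 2. The highest of them was Slc5a7, the choline transporter gene, at 3.33 and 3.67 against 4.74 and 4.65 (log2 change 0.38, adjusted p = 0.305).

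Some genes of cortical excitatory neurons had large positive estimates, and none was called. Of the 13 listed genes tested 10 had positive estimates and 3 negative ones. Their median was 0.14, beside -0.01 over all genes, and the lowest estimate was -0.34. Slc17a7, which encodes the vesicular glutamate transporter of cortical neurons, was at 1.36 and 4.26 scaled RPKM in the libraries labelled wild type and at 13.9 and 6.77 in those labelled knockout, against a mean of 126 in wild-type cortex. Each library differed from its replicate by 2-fold or more, and the log2 change of 1.78 (SE 0.42) did not pass (adjusted p = 0.208). Cck, a peptide gene of cortical and interneuron cells, was at 4.46 and 4.98 against 12.9 and 10.4 (log2 change 1.22, adjusted p = 0.193). The 22 markers of the list summed to 64.0 and 70.1 against 97.7 and 84.0, with none at 0 in all 4 libraries, beside 365 to 436 in cortex. These sums are given as a description, with no test. Neurod6 and Tbr1, transcription factor genes of cortical neurons that were too low to be tested, were at 0.104 and 0.368, and at 0.0918 and 0.302, in the wild-type libraries. In the knockout libraries they were at 1.63 and 0.775, and at 1.27 and 0.595, so that knockout replicate 1 was the highest for both. Of the 12 genes named on the higher side 3 were more than 2-fold higher in wild-type cortex than in adult wild-type striatum. So were 2 of the 12 named on the lower side and 6.1% of all genes. The part of cortical RNA in the higher genes was not tested.

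Channel, receptor and vesicle genes had mostly positive estimates, and none was called. Of 40 synaptic vesicle genes 32 had positive estimates, 21 did not overlap in that direction, beside 19.2% of all genes, and the median was 0.24. Syt1, the calcium sensor of vesicle release, was at 51.4 and 50.8 scaled RPKM against 81.3 and 62.5 (log2 change 0.48, adjusted p = 0.246), and Rab3c, a vesicle GTPase gene, at 15.3 and 12.7 against 27.2 and 18.5 (log2 change 0.67, adjusted p = 0.208). In both genes knockout replicate 1 was the highest library. Synpr, the synaptoporin gene, had a negative estimate (40.8 and 53.3 against 27.8 and 36.7, log2 change -0.54, adjusted p = 0.292). The 49 potassium channel genes had a median of 0.20 with 36 positive, and the 28 sodium and calcium channel genes a median of 0.20 with 23 positive. Kcna1, a voltage-gated potassium channel gene, was at 17.5 and 15.6 against 27.2 and 20.7 (log2 change 0.51, adjusted p = 0.274), and Cacna1e, a calcium channel gene, at 14.8 and 14.2 against 25.5 and 19.0 (log2 change 0.59, adjusted p = 0.218).

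The transmitter receptor genes were mostly positive too. The 14 GABA receptor genes had a median of 0.26, with Gabrb2 at 13.7 and 11.2 scaled RPKM against 20.8 and 14.4 (log2 change 0.47, adjusted p = 0.327). The 20 glutamate receptor genes had a median of 0.13 with 18 positive, and Grin2b, an NMDA receptor subunit gene, was at 18.6 and 15.7 against 27.6 and 21.3 (log2 change 0.49, adjusted p = 0.253). Knockout replicate 1 was the highest library in both. Without it, the medians were 0.17 for vesicle genes, 0.12 for potassium channels, 0.21 for sodium and calcium channels, 0.15 for GABA receptors and 0.11 for glutamate receptors. Without wild-type replicate 2 the medians were 0.15 for vesicle genes, 0.13 for sodium and calcium channels and 0.07 for glutamate receptors. The median span was 45.2 kb for the potassium channels, 60.1 kb for the vesicle genes, 111 kb for the sodium and calcium channels, 120.3 kb for the GABA receptors and 349 kb for the glutamate receptors, against 26.4 kb over all genes. The part of gene span in these medians was not tested. With RPKM as deposited, unscaled, the median of all genes moved to -0.14 and that of the glutamate receptors to -0.02.

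Genes of protein synthesis and respiration had mostly negative estimates. Of 76 cytosolic ribosomal protein genes 67 had negative estimates (median -0.20), beside 51.0% of all genes. Of 76 oxidative phosphorylation genes 64 had negative estimates (median -0.14), and none of either list was called. Rps24 was at 27.0 and 28.8 scaled RPKM against 20.6 and 22.2 (log2 change -0.37, adjusted p = 0.272), and Atp5h, a gene of the ATP synthase, at 15.9 and 19.5 against 11.02 and 15.4 (log2 change -0.42, adjusted p = 0.305). Without knockout replicate 1 the medians were -0.07 and 0.02. The 19 heat shock and stress genes tested had a median of -0.16 (-0.08 without that library), with the chaperone gene Hspa5 lowest at 57.1 and 85.9 against 34.4 and 54.8 (log2 change -0.68, adjusted p = 0.301). Knockout replicate 1 was the lowest library for all 3 genes. These lists hold short genes, with a median span of 3.27 kb (ribosomal), 7.565 kb (oxidative phosphorylation) and 7.34 kb (heat shock), against 26.4 kb over all genes. The part of gene span in their medians was not tested.

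Microglial genes had negative estimates throughout, again with no call. All 18 tested had negative estimates, 14 did not overlap and 10 had an unadjusted p under 0.05, beside 20.5% and 4.6% of all genes. The median was -0.35, and it was -0.22 without knockout replicate 1 and -0.56 without knockout replicate 2. Fcrls, a receptor gene of resident microglia, was at 8.00 and 7.33 scaled RPKM against 3.87 and 5.67 (log2 change -0.65, adjusted p = 0.208). C1qa, a complement gene, was at 17.1 and 14.3 against 8.55 and 12.3 (log2 change -0.58, adjusted p = 0.305), and P2ry12, a purine receptor gene, at 13.1 and 10.9 against 7.97 and 10.01 (log2 change -0.40, adjusted p = 0.311). Cx3cr1, the fractalkine receptor gene, overlapped between the groups (12.7 and 9.49 against 9.90 and 9.71). The 19 markers summed to 196 and 167 against 121 and 156, so that both knockout libraries were below both wild-type libraries. In striatum at 12 weeks the median of these genes was -0.05 and in cortex 0.14. Myelin genes had a median of -0.11, which was 0.14 without wild-type replicate 1 and -0.35 without wild-type replicate 2. Astrocyte genes had one of -0.08, between -0.23 and -0.02 without 1 library, the ends being without wild-type replicate 2 and without wild-type replicate 1.

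Activity-regulated and guidance genes held single members with large estimates. Nr4a2, a nuclear receptor gene, was at 0.210 and 0.275 scaled RPKM in the libraries labelled wild type and at 2.04 and 1.27 in those labelled knockout (log2 change 1.52, SE 0.33, adjusted p = 0.167). Nr4a2 reached 1 RPKM in the knockout libraries alone, so its entry into the comparison favoured this direction. It is also a gene of deep cortical neurons, and its mean in wild-type cortex was 4.95. Npas4, a transcription factor gene induced by neuronal activity, was at 3.05 and 2.89 against 2.22 and 1.40 (log2 change -0.61, adjusted p = 0.264), and Arc, a regulator of synaptic AMPA receptors, at 89.5 and 67.1 against 48.5 and 61.3 (log2 change -0.50, adjusted p = 0.459). In both the knockout libraries were lower without overlap. Of the 24 immediate early genes tested 6 did not overlap on the lower side and 4 on the higher side, beside 20.5% and 19.2% of all genes. The median of the 24 was -0.13 (0.01 without knockout replicate 1, -0.25 without knockout replicate 2). Of 24 semaphorins and their receptors 21 had positive estimates, with a median of 0.14 (0.04 without knockout replicate 1, 0.02 without wild-type replicate 2). The other 3 had negative ones, and of these Sema3a (1.14 and 0.977 against 0.653 and 0.366) and Sema3e (2.81 and 3.20 against 2.17 and 1.42) had the lowest estimates, with log2 changes of -0.64 and -0.63 (adjusted p = 0.246 and 0.272). Both were called lower in striatum at 12 weeks, with log2 changes of -1.25 and -1.11 (adjusted p = 0.00763 and 0.0318), where 7 genes were called lower (0.0661%). At 3 weeks Sema3a reached 1 RPKM in the wild-type libraries alone, so the filter on level favoured its direction there.

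The 5 genes were then followed through the other sets, none of which shares a library with striatum at 3 weeks. This holds for the log2 changes and not for the p-values. All p-values came from the same fit over 16 libraries, so each gene's estimate of spread was shared with the test at 3 weeks. In all 3 other sets every 1 of the 5 had a negative estimate. At 12 weeks, with the same driver, Htr2a stood at a log2 change of -1.92 (adjusted p = 1.45e-05), Cdh9 at -1.40 (adjusted p = 8.2e-05) and Brinp3 at -0.82 (adjusted p = 0.0355), while Kctd8 (-0.72, adjusted p = 0.0759) and Nts (-1.16, adjusted p = 0.181) did not pass. The wild-type level of Nts was itself lower at 12 weeks, at 1.42 ± 0.455 (SD, n = 2) scaled RPKM, and its knockout level was 0.364 ± 0.233. In cortex, with Nestin-Cre, Cdh9 (-0.83, adjusted p = 0.0147) and Htr2a (-0.80, adjusted p = 0.0267) were among 20 genes called lower (0.189%), and Brinp3, Kctd8 and Nts did not pass. In hypothalamus none passed, and the log2 changes lay between -0.50 for Cdh9 and -0.09 for Htr2a.

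**Figure D5:**
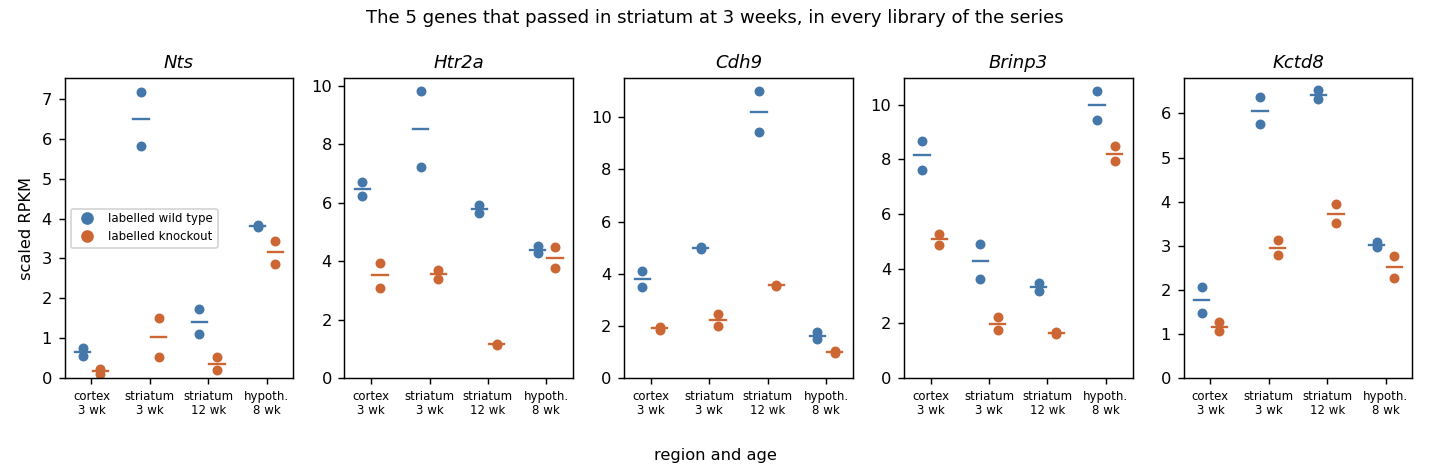
Level (y axis, scaled RPKM) of the 5 called genes in all 16 libraries, by region and age (x axis); points are libraries and bars the mean of 2. In striatum at both ages and in cortex the knockout libraries lie below the wild-type libraries for each gene, and the hypothalamic groups are closer, overlapping for Htr2a.

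Whether the effect differed between ages was tested as the effect at 12 weeks minus that at 3 weeks. No gene passed (0.0% of genes, with 1401 at an unadjusted p under 0.05). For the 5 called genes the difference was 1.11 (SE 0.37) for Nts, -0.77 (SE 0.20) for Htr2a, -0.39 (SE 0.17) for Cdh9, 0.10 (SE 0.19) for Brinp3 and 0.21 (SE 0.19) for Kctd8, with adjusted p between 0.244 and 0.819. A p above the threshold does not show that the effects were alike. The smallest adjusted p was 0.0662 and included Nr4a2 (difference -2.89), Cck (-2.29), Slc17a7 (-3.45), Rraga (-1.16), Mme (-0.97) and Abhd3 (0.83). Slc17a7, Cck and Nr4a2 had positive estimates at 3 weeks and negative ones at 12 weeks (-1.67, -1.07 and -1.37, none called). Of these, Nr4a2 entered the comparison through the knockout libraries at 3 weeks alone.

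The effect in cortex minus that in striatum at 3 weeks passed for 3 genes (0.0283%), none of them among the 5. Gsn, which encodes the actin-severing protein gelsolin, was at 53.2 and 42.9 scaled RPKM against 38.4 and 42.4 in striatum and at 7.54 and 9.15 against 22.3 and 18.3 in cortex. The groups were well apart in cortex, where 13 genes were called higher (0.123%), Gsn among them, and barely separated in striatum. Markers of oligodendrocytes, of which Gsn is not a listed member, had a median log2 change of 0.48 in cortex and of -0.11 in striatum, and their summed level was 930.5 and 996 against 1453 and 1630 in cortex and 4029 and 2792 against 3529 and 3068 in striatum. Their part in the difference of Gsn was not tested. Alcam, an adhesion gene of the immunoglobulin family, and the transcript A230057D06Rik also differed, and their values are given in the closing section. For the 5 called genes the differences ranged from 0.17 (SE 0.17) for Cdh9 to 1.48 (SE 0.37) for Nts, with adjusted p between 0.210 and 0.668. Nts was also low in wild-type cortex, at 0.660 ± 0.132 (SD, n = 2) scaled RPKM.

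The signs of the strongest estimates were counted in the other sets. Of the 50 genes of smallest p with a negative estimate in striatum at 3 weeks, 30 were negative at 12 weeks, 36 in cortex and 40 in hypothalamus, where 52.0%, 50.6% and 51.5% of all genes were negative. Of the 50 with a positive estimate, 19 were positive at 12 weeks, 16 in cortex and 38 in hypothalamus, beside 48.0%, 49.4% and 48.5% of all genes. These are counts without a test. Of the 50 positive genes 12 were more than 2-fold higher in wild-type cortex than in adult wild-type striatum, and of the 50 negative genes 3.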

How the data were processed

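RNA was sequenced in 16 libraries, 2 in each of 8 groups, and the authors deposited 1 table of RPKM values for 24176 gene symbols. The submitters' processing notes name CASAVA 1.8.2, cutadapt 1.6, TopHat2 and the mouse build mm9. Nothing in them gives the read counter, its strand setting or the denominator of the RPKM, so overlapping and antisense genes are uncertain. Groups were taken from the labels. RPKM were divided by median-ratio factors (8831 genes with at least 1 RPKM in all 16 libraries; factors 0.864 to 1.138 in the 4 libraries), transformed to log2(RPKM + 0.5), which understates changes of low genes, and fitted with limma 3.58.1 in R 4.3.3: 8 group means over all 16 libraries (8 residual degrees of freedom), variance trend, Benjamini-Hochberg adjustment over 10598 genes, threshold 0.05. Folds are ratios of mean scaled RPKM. Depth was estimated from single-exon genes: 62.1% to 67.2% of 253 to 268 genes per library gave whole multiples within 0.05, and 79.6% to 86.6% of these were even and were read as pairs; all 4 estimates are approximate.

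Same-numbered replicates were checked for pairing (correlation of the deviations of wild-type and knockout replicates across genes -0.378, 0.461, -0.207 and 0.136 in cortex, striatum at 3 and at 12 weeks, and hypothalamus), and the numbers were not used as a block. Gene spans came from GENCODE annotation of GRCm38, a build other than that of the files, for 95.9% of tested genes, and promoters from RefSeq. Data were simulated for 10598 genes with 200 changed. The fit recovered 21.6% at a log2 change of 0.5, 91.8% at 1 and 99.8% at 2, with false calls of 5.6%, 5.2% and 4.9%. The simulated noise was normal, independent between libraries and of a single SD per gene, with no shift by gene span. In the real libraries only 5 genes were called and such a shift was present, so these shares need not hold there. The genes, lists and tests were chosen with earlier results of these data known. Named were the check genes, the called genes, the genes of smallest p up to 12 in each direction whose groups did not overlap, list members of smallest p or of extreme log2 change, striatal identity genes and the leading interaction genes; Kctd12, Kctd16, Gabbr1, Gabbr2, Brinp1, Brinp2, Sort1, Lars2, Arc, Cdh10, C1qa, Cx3cr1, P2ry12, Neurod6 and Tbr1 were added after their values were seen. Alternatives were other scalings, pseudocounts, filters, variance models, sets of libraries and a looser threshold.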

Additional observations from a re-analysis of the deposited data

Results flagged for a closer look

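For 3 genes the effect of the knockout label in cortex differed from that in striatum at 3 weeks by a test of the difference itself (limma over 10598 genes). Gsn differed by 1.48 (SE 0.18, adjusted p = 0.0111): its log2 change was 1.23 in cortex and -0.24 in striatum. The median log2 change of the 22 oligodendrocyte and myelin genes was 0.48 in cortex and -0.11 in striatum, and their part in this difference was not tested. A230057D06Rik differed by 1.45 (SE 0.21, adjusted p = 0.0280). It was at 0.877 and 0.744 scaled RPKM in wild-type cortex and at 3.65 and 3.78 in knockout cortex, and at 2.54 and 2.67 against 3.84 and 2.56 in striatum. Alcam differed by -0.97 (SE 0.15, adjusted p = 0.0431). It was at 21.0 and 17.7 against 9.48 and 11.02 in cortex, and at 28.2 and 30.8 against 31.0 and 31.6 in striatum. The region and the Cre driver differ together between these sets and cannot be told apart. Leaving out single striatal libraries left 0 to 3 calls in this comparison.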

How the results depend on the processing

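The count of 5 called genes in striatum at 3 weeks was 3 with the striatal libraries alone (Cdh9, Htr2a and Kctd8), 0 with the 4 libraries alone and 16 at a threshold of 0.1, and 2 to 8 when 1 library was left out (2 without wild-type replicate 1, 8 without knockout replicate 2). It was 4 to 7 under the other settings run. The 5 genes kept a negative log2 change in every setting that tested them, and Nts kept its call when any 1 library was left out. For the difference between ages the count of 0 became 1 when values above 0 were enough to keep a gene, 1 with the replicate block, 9 at a threshold of 0.1, and 0 to 18 without 1 library (18 without knockout replicate 2). For the difference between cortex and striatum the count of 3 became 1 without scaling, 5 when values above 0 were enough, 0 with the replicate block, 15 at a threshold of 0.1, and 0 to 3 without 1 library (0 without wild-type replicate 1). The replicate block called 4 of the 5 genes at 3 weeks and lost Kctd8 (adjusted p = 0.121). The causes of these shifts were not tested. Fits of fewer libraries also have fewer degrees of freedom, and the part of this in the counts was not tested either.

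Without scaling, the log2 change turned negative for Htr1d (-0.07), Sort1 (-0.03), Brinp2 (-0.02), Ppp1r1b (-0.10) and Alcam (-0.07), and 7980 of all genes had a negative estimate against 5402. Without 1 library, the log2 change ranged from -0.43 to 0.05 for Htr1b, -0.12 to 0.25 for Htr1d, -0.25 to 0.15 for Ntsr2, -0.11 to 0.04 for Brinp1, -0.12 to 0.05 for Gabbr1, -0.30 to 0.02 for Drd1, -0.34 to 0.07 for Adora2a, -0.10 to 0.22 for Ppp1r1b, -0.36 to 0.05 for Cx3cr1, -0.02 to 0.49 for A230057D06Rik and -0.26 to 4.70 for Lars2. Depth limits the low genes: Nts had about 20 read pairs in knockout replicate 1.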
